A study of Mus musculus with 10 samples.

Results

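The endoplasmic reticulum (ER) folding and unfolded protein response genes were read in 10 mouse mammary tumors. The set was a fixed list of 40 genes matched by symbol, and all 40 were among the 21959 genes of the count table. By role they fell into 8 disulfide and thiol enzymes, 4 genes of the lectin chaperone cycle, 3 partners of BiP and stress-secreted factors, 6 translocation genes, 6 glycosylation genes, 9 genes of ER-associated degradation (ERAD) and 4 stress sensors. The class of stress sensors includes Xbp1, which encodes a transcription factor of the response rather than a sensor. The tumors grew from 4T1, a single mouse mammary carcinoma cell line taken to stand for triple-negative disease, injected under the skin of the abdomen of female BALB/c mice aged 5 to 6 weeks. The 5 tumors of the exercise group (E1 to E5) came from mice with voluntary wheel running for 21 days. The 5 tumors of the non-exercise group (NE1 to NE5) came from mice that carried the same cells and were housed without a wheel intervention. Whole tumor pieces taken at day 21 were sequenced as mRNA, so each value is a mean over carcinoma cells and host cells, and fewer cells of a type and less RNA per cell cannot be told apart.

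Proteins bound for the cell surface or for secretion enter the ER through the Sec61 channel, receive N-linked glycans from the oligosaccharyltransferase, and fold with help from the chaperone BiP, encoded by Hspa5, from the lectins calnexin and calreticulin, and from disulfide isomerases. Chains that fail to fold are extracted and degraded by the proteasome, a route known as ERAD. When unfolded chains accumulate, the sensors ATF6, IRE1 (Ern1) and PERK (Eif2ak3) start the unfolded protein response, in which cleaved ATF6 and the spliced product of Xbp1 raise transcription of chaperone and ERAD genes through the ER stress response element (ERSE). Secretory and fast-growing tumor cells are known for a high demand on this machinery.

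The ERSE is a CCAAT box followed by 9 unspecified bases and CCACG, and both strands were searched for it in the RefSeq promoters of GRCm38.p6, from 250 bases before to 50 bases after the start site. A promoter was held for 32 of the 40 genes. The element was present in 6 of these 32 genes and in 0.137% of 27025 genes with a promoter. The stretches are shown because these 6 members carry the letters through which this response is known to act. Hspa5, the reference gene of the pathway, is shown for comparison. Capitals mark the element, and each stretch runs 5′ to 3′ along the strand of its gene, so an element on the opposite strand reads CGTGG first and ATTGG last.

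Calr, chr8:84847055-84847113, minus strand: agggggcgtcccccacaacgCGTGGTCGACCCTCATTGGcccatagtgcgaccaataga
Canx, chr11:50325780-50325838, minus strand: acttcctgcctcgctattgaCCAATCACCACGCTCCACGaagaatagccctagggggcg
Creld2, chr15:88819500-88819558, plus strand: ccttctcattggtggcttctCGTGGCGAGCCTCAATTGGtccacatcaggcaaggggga
Derl3, chr10:75893222-75893280, plus strand: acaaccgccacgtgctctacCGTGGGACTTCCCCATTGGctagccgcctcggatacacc
Pdia6, chr12:17266471-17266529, plus strand: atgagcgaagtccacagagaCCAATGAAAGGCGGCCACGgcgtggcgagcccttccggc
Syvn1, chr19:6046512-6046570, plus strand: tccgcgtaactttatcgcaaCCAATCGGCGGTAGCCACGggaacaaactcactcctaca
Hspa5, chr2:34772005-34772063, plus strand: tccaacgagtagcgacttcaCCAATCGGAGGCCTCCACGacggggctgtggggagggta

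The element lay between 162 and 26 bases before the start site in the 6 members and between 65 and 47 bases before it in Hspa5. A related element, ERSE-II (ATTGG, 1 unspecified base and CCACG), was found in 1 member, Herpud1, and in 0.0444% of all genes with a promoter. The unfolded protein response element (TGACG followed directly by TGG) was found in 1 member, Txndc5, and in 0.714% of genes. None of the 3 motifs was found together with another in a member. These stretches are shown for the same reason, with the motif in capitals.

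Herpud1, ERSE-II, chr8:94386357-94386407, plus strand: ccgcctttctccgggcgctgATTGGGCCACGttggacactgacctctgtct
Txndc5, chr13:38528025-38528072, minus strand: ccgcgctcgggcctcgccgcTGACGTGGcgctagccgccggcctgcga

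The deposited read counts summed to 15045613 to 20646763 in the E tumors and to 18706032 to 23092251 in the NE tumors. The 40 genes took between 1.25% (NE4) and 1.51% (E1) of all counts. Defining markers of carcinoma epithelium were near 0 in every tumor, with Epcam at 0.52 to 3.14 CPM (counts scaled to a common library size with TMM factors), Krt8 at 0 to 1.24 CPM and Krt18 at 0.08 to 2.20 CPM, and among the 10 markers of this list Krt19 (8.42 to 23.7 CPM) and Cdh1 (6.83 to 20.6 CPM) were the highest except in NE5, where Krt14 was at 54.2 CPM and Krt5 at 28.9 CPM. The sum of 10 fibroblast markers ranged from 2384 to 16240 CPM in E and from 1048 to 5216 CPM in NE, with the highest value in E5. The sum of 12 skeletal muscle markers ranged from 295 to 3865 CPM in E and from 6.62 to 27600 CPM in NE, with its highest value in NE4, and no gene of that list was at 0 in all tumors. The sum of 10 macrophage or monocyte markers ranged from 2536 to 4242 CPM in E and from 1244 to 4347 CPM in NE. Of 12 plasma cell markers 7 were in the table, and their sum (167 to 229 CPM in E, 147 to 229 CPM in NE) came mostly from Sdc1, which carcinoma cells also express, whereas the defining markers Mzb1 and Tnfrsf17 stayed under 0.33 CPM. The part of these cells in the results that follow was not tested except where a value is given.

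Levels were compared between genes as FPKM (the read count divided by gene length and by library total). Across the 10 tumors the highest member was Calr, encoding calreticulin, the soluble lectin of the glycoprotein folding cycle, at 395 to 593 FPKM. Next were the disulfide isomerases Pdia3, which works with the lectins, at 325 to 418 FPKM and P4hb, the founding isomerase, at 331 to 411 FPKM. The ranges of these last members overlapped almost wholly, and their order is not resolved by these tumors. Hspa5 itself was at 301 to 408 FPKM and Hsp90b1, the HSP90 paralog of the ER, at 122 to 209 FPKM.

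Among the other disulfide and thiol enzymes, Pdia6 (207 to 280.3 FPKM) and Pdia4 (171 to 222 FPKM) stood above Creld2 (49.6 to 78.8 FPKM), a stress-inducible thiol protein, Txndc5 (53.7 to 70.5 FPKM) and Erp44 (37.3 to 44.3 FPKM), which returns escaped clients from the Golgi. Erp29, an isomerase relative without the catalytic cysteine pair, was the lowest of this class at 9.91 to 12 FPKM. In the lectin cycle the membrane lectin Canx was at 192 to 242 FPKM. The glucosidase subunit Ganab (40.9 to 50.8 FPKM) and the folding sensor Uggt1 (32 to 41.2 FPKM) were both far below the lectins. The nucleotide exchange factor Hyou1 (51.4 to 74.6 FPKM), the BiP cycle cofactor Sdf2l1 (42.9 to 72.3 FPKM) and the secreted factor Manf (53.9 to 70.5 FPKM) had overlapping ranges.

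In the translocation class the 4 subunits of the translocon-associated protein complex were read at unequal levels. Ssr3 was at 159.6 to 194 FPKM, Ssr2 at 110.5 to 139 FPKM, Ssr1 at 34.1 to 45 FPKM and Ssr4 at 33.4 to 46.1 FPKM. The channel subunits Sec61b (47.6 to 56.5 FPKM) and Sec61a1 (28.4 to 34.5 FPKM) were within or below this range. Among the oligosaccharyltransferase subunits Ddost (125 to 159 FPKM) and Rpn2 (86 to 109 FPKM) exceeded the catalytic subunits Stt3b (57.8 to 76 FPKM) and Stt3a (36.1 to 42.3 FPKM), and the ranges of Rpn1 (58.3 to 73.8 FPKM) and Ostc (54 to 59.4 FPKM) overlapped that of Stt3b.

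ERAD genes other than Derl3 lay between 9.23 and 91.9 FPKM. Os9, a lectin that hands misfolded glycoproteins to the ubiquitin ligase complex, was at 64.9 to 91.9 FPKM. The membrane proteins Derl1 (54.7 to 68 FPKM) and Derl2 (9.58 to 11.8 FPKM) differed severalfold, and the mannose-trimming proteins Edem1 and Edem2 were at 37.9 to 49.3 FPKM and 19.4 to 24.6 FPKM. The ligase Syvn1 (9.23 to 12 FPKM) was below its adaptor Sel1l (25.8 to 32.9 FPKM), and Herpud1, a stress-inducible scaffold of this ligase, was at 25 to 39.2 FPKM.

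Derl3, the Derlin best known from professional secretory cells, was the lowest member, at 0.05 to 0.51 FPKM and 2 to 23 reads a tumor. In E4 it was under the floor of 3 reads, and the gene did not pass the filter on low counts, so it entered no fit. The stress sensor class was led by Xbp1 at 81.3 to 97.5 FPKM and Atf6 at 36 to 50.3 FPKM, whereas Ern1 (9.28 to 12 FPKM) and Eif2ak3 (6.13 to 7.75 FPKM), the kinases of the response, were among the lowest members. Counts per gene do not show Xbp1 splicing.

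**Figure D1:**
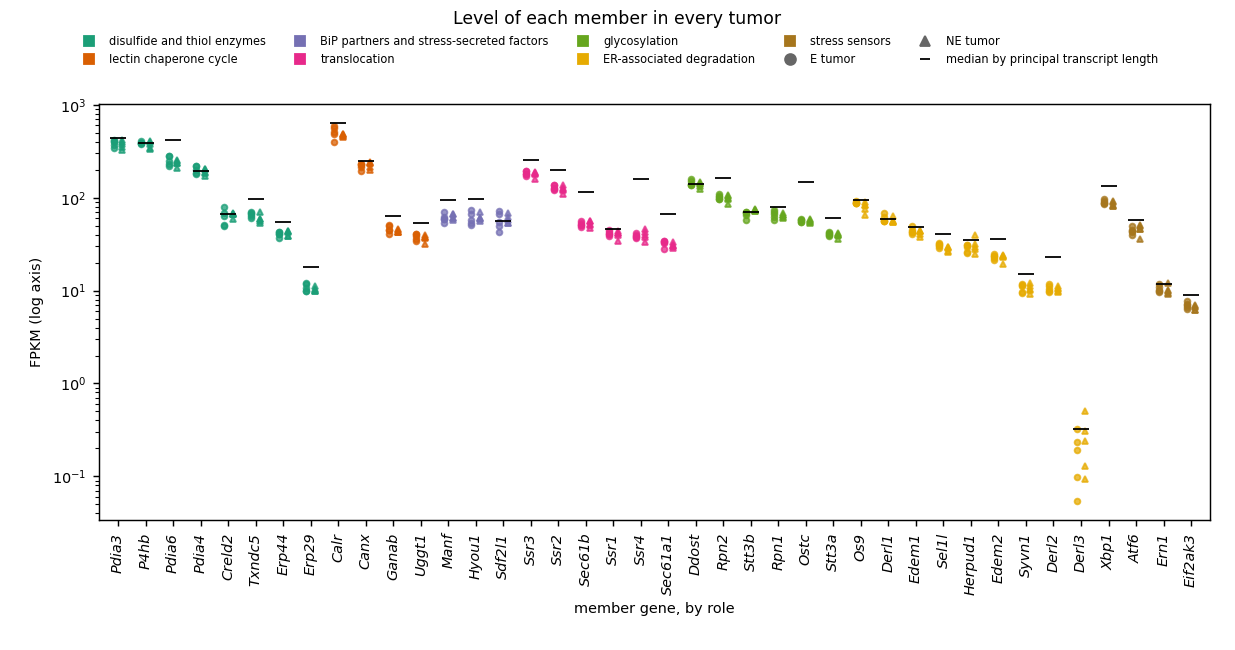
FPKM of the 40 genes in each tumor on a log axis, circles for E and triangles for NE, grouped and colored by role, with a black bar for the median when the principal transcript length replaces the table's gene length. Calr, Pdia3 and P4hb lie at the top, Derl3 lies below 1 FPKM, and the bar for Ssr4 sits at 157 FPKM against 38.9 FPKM from the table.

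This order depended on gene length. The table's length equalled the union of exons in GENCODE M21 for all 40 genes, and it exceeded the length of the principal coding transcript by a median of 1.38 times, by over 1.5 times in 16 genes and by 4.05 times in Ssr4. With the principal transcript length, an alternative chosen after seeing the data, the median of Ssr4 went from 38.9 to 157 FPKM, that of Ostc from 56.9 to 147 FPKM and that of Sec61b from 51.4 to 116 FPKM. Calr and Pdia3 stayed at places 1 and 2, while Pdia6 (420.1 FPKM) went from place 4 to 3 and P4hb (386 FPKM) from 3 to 4. Differences between groups within a gene do not depend on this length.

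The comparison of E with NE asks whether exercise of the host went with another level of this machinery in the tumor. None of the 39 members tested passed the study's thresholds of a 2-fold change and a false discovery rate (FDR) of 0.05 in edgeR's quasi-likelihood test, where 0% of the 13517 genes tested passed (657 genes at an unadjusted p of at most 0.05). The lowest adjusted p among the members was 0.897. DESeq2, limma-voom with sample weights and limma on log2 FPKM also called 0 genes at these thresholds. Of the 39 members 25 were higher and 14 lower in E, with log2 fold changes from -0.17 (Stt3b) to 0.12 (Os9), a median of 0.014 and, over all genes tested, a median of -0.014. Of all 13517 genes tested 6221 were higher and 7296 lower in E. These directions depend on scaling, since without TMM the median was 0.047 over the members and 0.018 over all genes.

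The intervals were narrow. Each of the 39 members had a 95% confidence interval within 0.5 of 0 on the log2 scale, the lowest bound being -0.41 (Herpud1) and the highest 0.29 (Calr), which are 0.752-fold and 1.22-fold. A change of 2-fold in either direction lay outside the interval of every member tested. At an unadjusted p of at most 0.05, 0 members were higher in E (2.57% of all genes) and 1 member was lower (2.29% of all genes), a share of members near that of the background. The CPM of the groups did not overlap for 1 of the 39 members and for 0.725% of all genes.

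**Figure D2:**
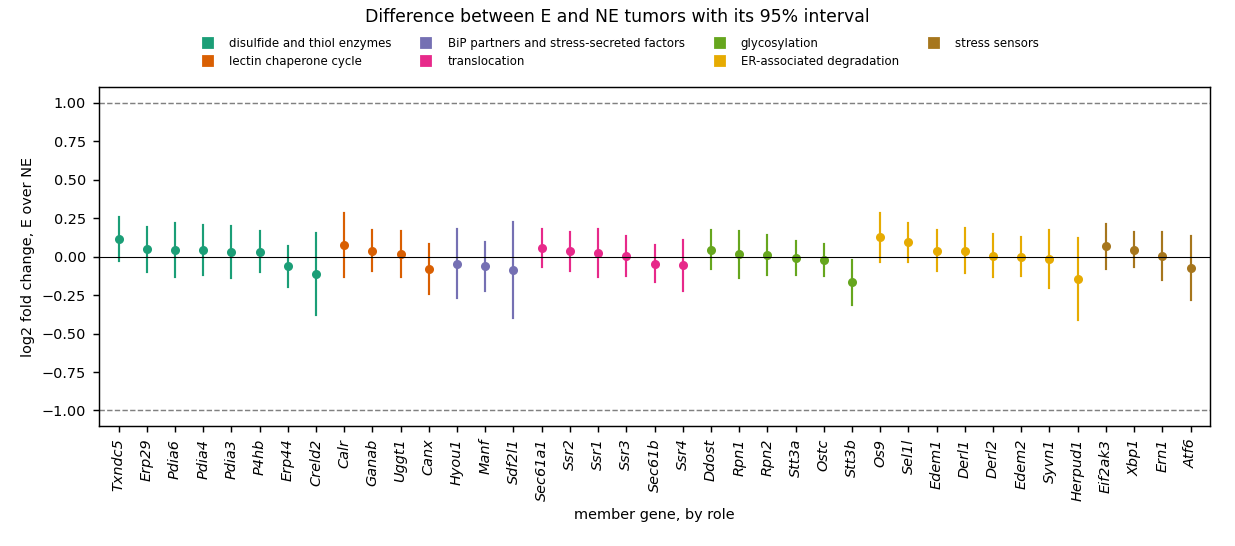
Log2 fold change of E over NE (points) with its 95% confidence interval (lines) from edgeR for the 39 members tested, colored by role, with dashed lines at a 2-fold change. Every interval lies between the dashed lines, and only that of Stt3b does not include 0.

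That member was Stt3b, which encodes the catalytic subunit of the oligosaccharyltransferase complex that glycosylates sites missed during translocation (chr9:115242581-115310421, minus strand, GENCODE M21 on GRCm38). Stt3b was at 294, 291, 296, 274 and 239 CPM in E1 to E5 and 299, 303, 321, 327 and 316 CPM in NE1 to NE5. Every NE tumor was above every E tumor, and E5 was the lowest of the 10. Its log2 fold change was -0.17 (SE 0.066, 95% interval -0.31 to -0.02, adjusted p = 0.897 in edgeR), so the unadjusted edgeR p-value of 0.0284 did not hold after correction over all genes. With any 1 tumor left out the log2 fold change lay between -0.19 and -0.12, and the unadjusted p-value rose above 0.05 without E4 (0.0566), NE3 (0.0587) or NE5 (0.0524), and without E5 and NE4 together (0.0814). With the log2 total count as a covariate the log2 fold change was -0.06 and the unadjusted edgeR p-value 0.393. E5 was also the tumor with the highest sum of fibroblast markers and the fewest reads.

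Stt3a, the paralog that acts on chains still entering the channel, was at 374, 361, 357, 357 and 338 CPM in E1 to E5 and 356, 359.5, 357, 340.1 and 383 CPM in NE1 to NE5. Its groups overlapped, and its log2 fold change was -0.01 (SE 0.050, 95% interval -0.12 to 0.10, adjusted p = 0.988 in edgeR). The log2 FPKM ratio of Stt3a to Stt3b was -0.71 ± 0.09 in E and -0.87 ± 0.09 in NE (SD). The difference of 0.16 gave p = 0.0159 in an exact two-sided permutation test, where the smallest p the design allows is 0.00794, and 0.143 after adjustment over the 9 ratios compared. The groups overlapped in this ratio by E3 and NE5 alone.

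**Figure D3:**
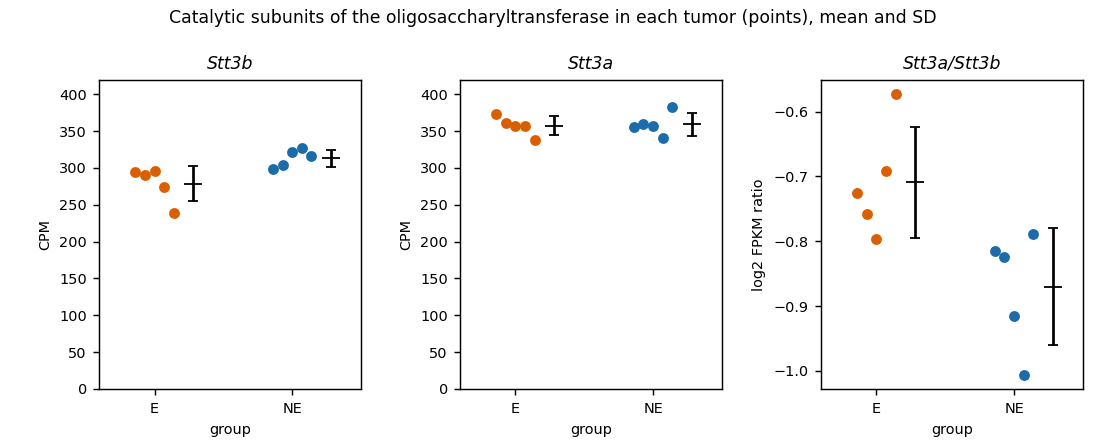
CPM of Stt3b (left) and Stt3a (middle) and the log2 FPKM ratio of Stt3a to Stt3b (right) in each E and NE tumor (points, in replicate order), with the mean and SD beside them. The Stt3b points of E lie at 239 to 296 CPM, all under those of NE at 299 to 327 CPM, whereas Stt3a lies at 338 to 383 CPM in both groups.

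The other 8 ratios, each set between partners or paralogs, gave exact p of 0.103 or above between the groups. Within the whole glycosylation class 3 of 6 genes were higher and 3 lower in E. Ddost, a structural subunit, was at 333, 312, 297, 296 and 287 CPM in E1 to E5 and 305, 304, 283, 278 and 308 CPM in NE1 to NE5. Its groups overlapped, and its log2 fold change was 0.05 (SE 0.057, 95% interval -0.08 to 0.17, adjusted p = 0.926 in edgeR). No other gene of the class was beyond 0.05 from 0 on the log2 scale.

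In the disulfide and thiol class 6 of 8 genes were higher and 2 lower in E, with a median log2 fold change of 0.04. Txndc5 was at 313, 292, 273, 282 and 302 CPM in E1 to E5 and 306, 269, 254, 254 and 269 CPM in NE1 to NE5. Among NE tumors only NE1 reached the range of E, and the log2 fold change was 0.11 (SE 0.065, 95% interval -0.03 to 0.26, adjusted p = 0.897 in edgeR). Erp44 was at 138, 141, 147, 139 and 125 CPM in E1 to E5 and 131, 149, 147, 139.5 and 154 CPM in NE1 to NE5, with overlapping groups. Its log2 fold change was -0.06 (SE 0.061, 95% interval -0.20 to 0.07, adjusted p = 0.898 in edgeR). Creld2, an ERSE gene, had the lowest log2 fold change of the class, -0.11 with an SE of 0.12, and its 2 lowest tumors were E3 (69.6 CPM) and E5 (66.4 CPM).

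In the lectin cycle 3 of 4 genes were higher and 1 lower in E. Calr was at 1689, 1605, 1154, 1451 and 1360.2 CPM in E1 to E5 and 1378, 1355, 1297, 1482 and 1374 CPM in NE1 to NE5. The E tumors lay on both sides of all NE tumors, E1 and E2 above and E3 below, and the log2 fold change was 0.08 (SE 0.095, 95% interval -0.13 to 0.29, adjusted p = 0.926 in edgeR). Canx, its membrane-bound counterpart, was at 999, 1034, 1085, 1064 and 883 CPM in E1 to E5 and 991, 1143, 1115, 973 and 1127 CPM in NE1 to NE5. The groups overlapped again, with E5 lowest, and its log2 fold change was -0.08 (SE 0.073, 95% interval -0.24 to 0.08, adjusted p = 0.897 in edgeR).

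All 3 partners of BiP and stress-secreted factors were lower in E, with a median log2 fold change of -0.06, and none passed the test. Manf was at 246, 216, 209.6, 207 and 186 CPM in E1 to E5 and 228, 215, 238, 213 and 218 CPM in NE1 to NE5. Its log2 fold change was -0.06 (SE 0.073, 95% interval -0.22 to 0.10, adjusted p = 0.913 in edgeR). Sdf2l1, the member with the widest spread, was at 79.1, 72.3, 48.2, 59.3 and 53.5 CPM in E1 to E5 and 58.5, 64.1, 68.2, 80 and 60.5 CPM in NE1 to NE5. NE4 and E1 were the highest tumors and E3 the lowest, so the groups overlapped throughout. The log2 fold change was -0.08 (SE 0.141, 95% interval -0.40 to 0.23, adjusted p = 0.944 in edgeR). Both genes turned to higher values in E when the log2 total count was a covariate (0.05 for Manf and 0.03 for Sdf2l1).

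In translocation 4 of 6 genes were higher and 2 lower in E. Sec61a1, the pore of the channel, was at 224, 227, 194, 215 and 225 CPM in E1 to E5 and 218, 207, 205, 202 and 211 CPM in NE1 to NE5. Its log2 fold change was 0.06 (SE 0.055, 95% interval -0.06 to 0.18, adjusted p = 0.898 in edgeR). Sec61b, a small subunit beside the pore, was at 70.8, 66.9, 64.9, 63.7 and 60.4 CPM in E1 to E5 and 70.4, 71.2, 65.3, 63.7 and 66.6 CPM in NE1 to NE5, and its log2 fold change was -0.04 (SE 0.056, 95% interval -0.17 to 0.08, adjusted p = 0.926 in edgeR). Both genes had overlapping groups, and the log2 ratio of Sec61a1 to Sec61b differed by 0.10 between E and NE (exact p = 0.103).

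In ERAD 6 of the 8 genes tested were higher and 2 lower in E. Os9 was at 227, 236, 234, 230.1 and 226 CPM in E1 to E5 and 234, 222, 199, 179.6 and 224 CPM in NE1 to NE5. Among NE tumors only NE1 reached the range of E, NE4 was the lowest, and the log2 fold change was 0.12 (SE 0.071, 95% interval -0.03 to 0.28, adjusted p = 0.897 in edgeR). Sel1l, which ties Os9 to the ligase, was at 265, 275, 265, 256 and 239 CPM in E1 to E5 and 249, 250.3, 229.7, 232 and 259 CPM in NE1 to NE5. Its groups overlapped, and its log2 fold change was 0.09 (SE 0.056, 95% interval -0.03 to 0.22, adjusted p = 0.897 in edgeR). Herpud1 had a log2 fold change of -0.15 with an SE of 0.12, and NE4 alone stood at 96.4 CPM while the other tumors were at 58.7 to 71.8 CPM.

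Of the stress sensors 3 of 4 genes were higher and 1 lower in E. Xbp1, the transcription factor activated by splicing, was at 299, 309.6, 288, 278 and 282 CPM in E1 to E5 and 297, 269, 273, 278 and 294 CPM in NE1 to NE5. Its log2 fold change was 0.05 (SE 0.052, 95% interval -0.07 to 0.16, adjusted p = 0.911 in edgeR). Eif2ak3, the kinase that slows translation, was at 39.9, 41.5, 44.3, 38 and 45.8 CPM in E1 to E5 and 39.5, 37.6, 41.9, 38.9 and 41.8 CPM in NE1 to NE5, and its log2 fold change was 0.07 (SE 0.067, 95% interval -0.08 to 0.21, adjusted p = 0.898 in edgeR). Xbp1 and Eif2ak3 both had overlapping groups. Hspa5 was at 1669.7, 1620.1, 1459.5, 1515 and 1248 CPM in E1 to E5 and 1385, 1743, 1641, 1412 and 1665 CPM in NE1 to NE5. E5 was the lowest tumor and NE2 the highest, and the log2 fold change was -0.06 (SE 0.093, 95% interval -0.27 to 0.14, adjusted p = 0.935 in edgeR).

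The wider pathway list held 63 further genes, and 62 passed the filter (Ern2, an IRE1 paralog of the gut, did not). None of the 62 was at an unadjusted p of at most 0.05 in edgeR, 24 were higher and 38 lower in E, and their median log2 fold change was -0.02. Of 19 further folding genes 9 were higher and 10 lower. Of 16 further translocation and glycosylation genes 2 were higher and 14 lower, all 16 between -0.09 and 0.15. Of 14 further ERAD genes 6 were higher and 8 lower. The 13 further stress signaling genes tested had the widest range, from -0.46 (Trib3, a target of the PERK branch) to 0.59 (Creb3l1, an ATF6-like factor of collagen-producing cells). Hsp90b1 was at 529, 645, 684, 699 and 504 CPM in E1 to E5 and 483, 851, 787, 596 and 743 CPM in NE1 to NE5, with both groups spread widely and overlapping. Its log2 fold change was -0.18 (SE 0.158, 95% interval -0.53 to 0.17, adjusted p = 0.897 in edgeR).

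Spread between tumors was narrow in the members. Their biological coefficient of variation (edgeR, the spread between tumors of a group beyond counting error) had a median of 11.2%, from 9.14% (Edem2) to 17.1% (Sdf2l1), and the median was 16.8% over all genes tested and 11.9% over the 5660 genes within the members' range of mean level. The highest CPM exceeded the lowest over the 10 tumors by a median of 1.22-fold in the members. The widest were Sdf2l1 at 1.66-fold, Herpud1 at 1.64-fold and Creld2 at 1.60-fold. Creld2 and Herpud1 are known as stress-inducible, but the width of Herpud1 came from NE4 alone. The other members tested with an ERSE had a narrower spread, from 1.26-fold in Syvn1 to 1.46-fold in Calr. Whether spread goes with a response to ER stress was not tested.

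**Figure D4:**
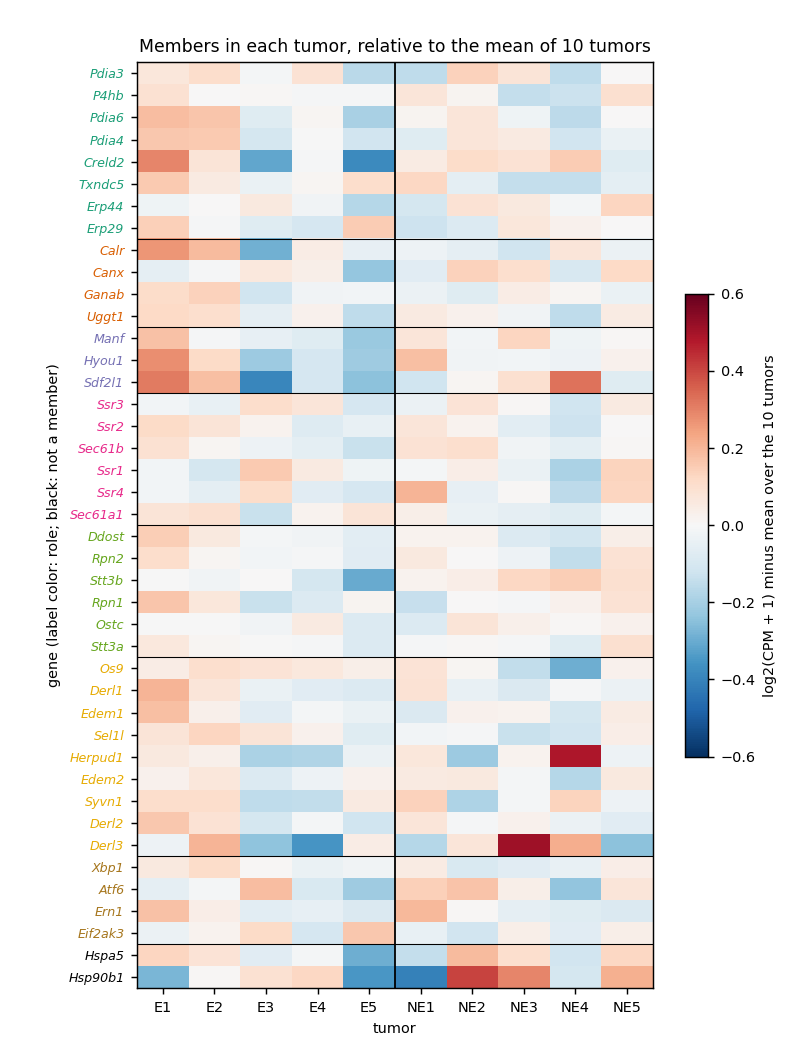
Log2(CPM + 1) of each member, and of Hspa5 and Hsp90b1 in the bottom rows, minus the mean of that gene over the 10 tumors, with tumors in columns and genes in rows by role. E1 is red in most rows and E5 and NE4 are blue in most, and Herpud1 in NE4 and the low-count Derl3 in NE3 are the darkest red cells.

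The tumors that stood out came from both groups. E1 was the highest of the 10 tumors for 15 of the 39 members and the lowest for none, while E5 was the lowest for 13 and NE4 for 12. The median deviation of the members from their own means was 0.10 in E1, 0.06 in E2, -0.08 in E5 and -0.07 in NE4 on the log2 scale. E5 and NE4 held the highest sums of fibroblast and of skeletal muscle markers, and the muscle genes took up to 2.62% of all counts in NE4. Herpud1, Sdf2l1 and Stt3b were the 3 members with their highest value in NE4.

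The relation of the members to Hspa5 across the 10 tumors was measured on log2(CPM + 1), where all points share the library and its scaling. The median Pearson's r with Hspa5 was 0.45 over the 39 members and 0.06 over the 13516 genes compared, and 33 of 39 members (57.6% of all genes) had an r above 0. At an unadjusted permutation p of at most 0.05, 10 members were positively related, against 2.15% of all genes. After Benjamini-Hochberg adjustment over all genes no member was related (0% of all genes, adjusted p = 1 for every member). The count at an unadjusted p is a description of the list. E5 weighed most on it, since without E5 the count was 4 and the median r 0.27, while without any 1 of the other tumors the count was 8 to 12.

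The 6 closest members were 3 disulfide and thiol enzymes, 2 glycosylation genes and the lectin Canx. Pdia3 had an r of 0.870 (rho = 0.782, permutation p = 0.00101 and 0.0101) and kept 0.763 without E5 and NE1, the tumors farthest from the median of Hspa5. Pdia3 was at 1249.8, 1283, 1184, 1265 and 1066 CPM in E1 to E5 and 1073, 1314, 1259, 1073 and 1196 CPM in NE1 to NE5, lowest in E5, NE1 and NE4, which were also the 3 lowest tumors for Hspa5. Canx (r = 0.808, rho = 0.758), Erp44 (r = 0.800, rho = 0.661) and Ostc (r = 0.788, rho = 0.673) followed, with permutation p of 0.00499, 0.00565 and 0.00627 for r and of 0.0150, 0.0442 and 0.0393 for rho. Without E5 and NE1 these went to 0.534, 0.432 and 0.468, so a large part of each rested on those tumors. Pdia4 (r = 0.766, rho = 0.818) and Stt3a (r = 0.754, rho = 0.830), with permutation p of 0.0105 and 0.0120 for r and of 0.00575 and 0.00480 for rho, kept 0.731 and 0.673.

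The 4 lowest were 1 stress sensor, 2 ERAD genes and the thiol enzyme Txndc5, while other genes of these classes had an r above 0, such as Atf6 at 0.457 and Edem1 at 0.697. Eif2ak3 had an r of -0.448 (rho = -0.321, permutation p = 0.195 and 0.370), Syvn1 of -0.332 (rho = -0.430, p = 0.346 and 0.217), Herpud1 of -0.263 (rho = -0.261, p = 0.472 and 0.470) and Txndc5 of -0.256 (rho = -0.164, p = 0.475 and 0.660). Without E5 and NE1 the values were -0.147, -0.121, -0.430 and 0.296. None of these relations passed the test, and that of Txndc5 changed its sign. Genes with an ERSE or ERSE-II, such as those printed above, had a median r of 0.43 (6 genes tested), and genes whose promoter held neither had a median of 0.45 (25 genes).

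**Figure D5:**
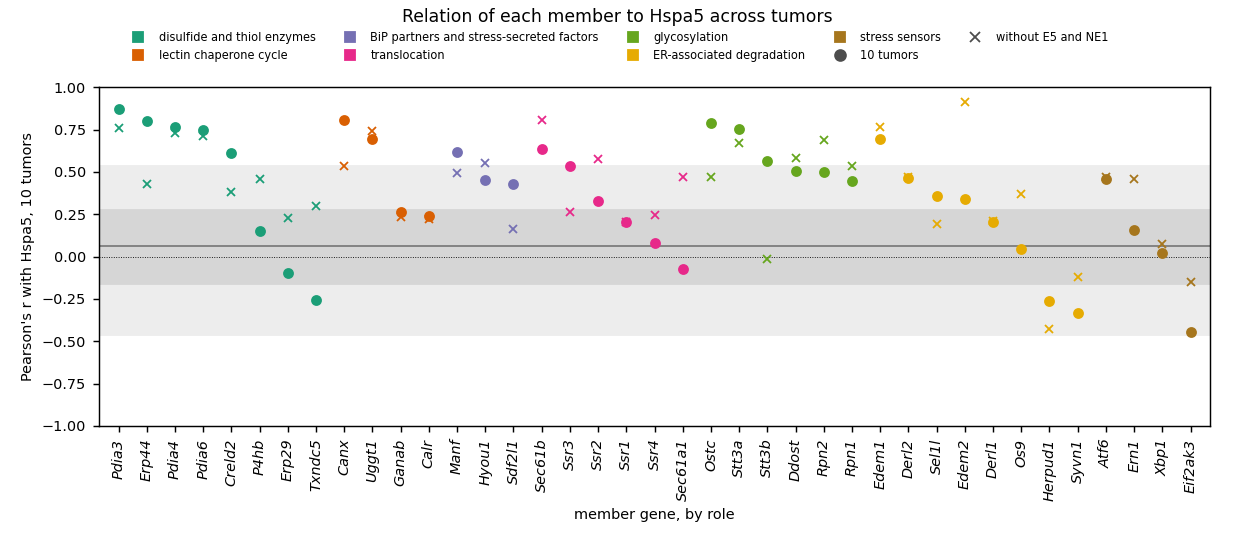
Pearson's r of each member with Hspa5 across the 10 tumors (circles) and without E5 and NE1 (crosses), colored by role, with the middle 50% and 90% of all genes as darker and lighter grey bands and their median of 0.06 as a line. Pdia3, Canx and Erp44 lie highest at 0.80 to 0.87, and Eif2ak3 lies lowest at -0.45.

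With Hsp90b1 in place of Hspa5 the members had a median r of -0.03 (0.03 over all genes compared), and 18 of 39 had an r above 0 (52.3% of all genes). At an unadjusted permutation p of at most 0.05, 5 of 39 members were positively related, against 1863 of 13516 genes. Canx was the highest at 0.885 (permutation p = 0.000520, adjusted p = 0.0473), 1 member among 190 related genes of the 13516 compared. The difference between the medians for the 2 references was not tested.

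Among themselves the 39 members formed 741 pairs with a median r of 0.31, of which 75.2% were above 0, compared with a median of -0.004 and 49.7% above 0 over all pairs of genes tested. With the group means removed the median over the members was 0.35. The 3 partners of BiP and stress-secreted factors had a median of 0.66 among themselves and the 4 genes of the stress sensor class had a median of 0.16. The closest pair was Pdia6 and Uggt1 (r = 0.955, rho = 0.927), followed by Erp44 and Canx (r = 0.922, rho = 0.891) and by Hyou1 and Derl2 (r = 0.918, rho = 0.842). The most opposed were Ssr3 and Syvn1 (r = -0.869, rho = -0.842) and Ssr1 and Herpud1 (r = -0.796, rho = -0.661). These pairs were the extremes of 741 and carry no test.

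Sums of cell type markers were set against the members in the same way. With 39 members and 5 sums, 1 relation passed the adjustment over all genes, that of Ssr4 with the macrophage or monocyte sum (r = -0.821, rho = -0.709, permutation p = 0.00160 and 0.0260, adjusted p = 0.0466 and 0.199), where 0.429% of all genes were negatively related. Ssr4 was at 120.2, 117, 131, 116 and 113 CPM in E1 to E5 and 140.0, 117, 122, 109 and 133 CPM in NE1 to NE5, highest in NE1, the tumor with the lowest sum. Without NE1 and NE4, r was -0.610, and the adjusted p-value rose above 0.05 when any 1 was left out of E2, E3, E5 or the 5 NE tumors. The relation was not particular to this sum. Ssr4 had an r of -0.847 with the skeletal muscle sum (permutation p = 0.00115, adjusted p = 0.0890). Its r was -0.681 with the fibroblast sum, -0.641 with the plasma cell sum and 0.368 with the carcinoma epithelium sum. NE1 was also the lowest tumor for the fibroblast and skeletal muscle sums. Atf6 had an r of -0.958 with the plasma cell sum (rho = -0.976, permutation p = 2.0e-05 and 5.0e-05, adjusted p = 0.270 and 0.135), which did not pass. Without E5 and NE2, r was -0.982. The permutations drawn were too few for 1 gene alone to pass the adjustment, so the adjusted p-value does not decide this relation. The plasma cell sum came mostly from Sdc1, so the relation cannot be read as one to plasma cells. Atf6 also had an r of -0.785 with the fibroblast sum and -0.624 with the macrophage or monocyte sum. Their permutation p was 0.00443 and 0.0402 (adjusted p = 0.123 and 0.266). Its r was -0.573 with the skeletal muscle sum and 0.095 with the carcinoma epithelium sum. Hspa5 had an r of -0.512 to 0.202 with the 5 sums, none past an unadjusted p of 0.05.

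Levels were also set against each other within fixed pairs of members, as log2 ratios of FPKM + 1 with the SD over the 10 tumors. The ratio of Derl1 to Derl2 was 2.37 ± 0.05, that of Sel1l to Syvn1 1.39 ± 0.15, that of Calr to Canx 1.14 ± 0.22, that of Edem1 to Edem2 0.87 ± 0.08 and that of Ern1 to Eif2ak3 0.54 ± 0.15. Rpn1 to Rpn2 was at -0.62 ± 0.11 and Sec61a1 to Sec61b at -0.71 ± 0.10. The sign of these 7 ratios was alike in all 10 tumors with the table's gene length and with the principal transcript length. Stt3a to Stt3b was at -0.79 ± 0.12 and below 0 in all 10 tumors with the table's length, but with the principal transcript length it was at -0.19 ± 0.12 and above 0 in E5, so the order of these paralogs is not resolved. Derl3 to Derl2 was below 0 in all 10 tumors, and its size was set by the pseudocount, with -3.24 ± 0.17 on FPKM + 1 and -5.17 ± 0.60 on FPKM + 0.1. Size and sign of each ratio rest on gene length, so no test against 0 is given.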

How the data were processed

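Tumor RNA was sequenced by the authors as paired-end mRNA libraries and aligned with Hisat2. The authors obtained FPKM with Stringtie and do not say how the read counts were made. Their methods name a rat assembly, although the gene identifiers are mouse Ensembl, and no build stands in the table. The deposited table holds raw read counts per gene and, per the file headers, FPKM, which equalled count per gene length and library total within a relative deviation of 3.77e-14. Labels gave the groups, and the 5 E and 5 NE samples were taken as separate mice.

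Counts were tested with edgeR 4.0.16 in R 4.3.3 (filterByExpr, TMM, quasi-likelihood, E against NE without covariates), with adjustment over 13517 genes and the study's thresholds of 2-fold and an FDR of 0.05. DESeq2 1.42.0 and limma 3.58.1 were alternatives. P-values printed without the word adjusted are unadjusted. In data simulated for E against NE, 131 of 200 genes changed by 1.2 on the log2 scale were recovered among 13425 genes, with 5 false calls. Recovery and false calls were counted there at an FDR of 0.05 without the 2-fold threshold. Correlations used log2(CPM + 1) with 100000 permutations. Exact permutation tests went through all assignments of tumors in Python 3.11.15 with numpy 2.4.6. The Benjamini-Hochberg adjustment of correlations and ratios used scipy 1.17.1. Ratios used log2(FPKM + 1). The members, the lists and the tests were chosen with earlier results of these data known. Named were Hspa5, Hsp90b1, the 2 members with the smallest p in each of the 7 roles, members at an unadjusted p of at most 0.05 or with groups that did not overlap, up to 8 pathway genes at that p (0 were found), and the 6 highest and 4 lowest relations to Hspa5. Creld2, Herpud1, Stt3a, Trib3 and Creb3l1 were named after their values were seen. Gene lengths came from GENCODE M21. Replicate numbers are shared by the groups, and the study's text speaks of matched pairs without saying what matched them, so the number as a block was an alternative. The printed intervals come from the edgeR fit to the tumors of both groups and include the spread between tumors. The floor of 3 counts covers counting error only.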

Additional observations from a re-analysis of the deposited data

Results flagged for a closer look

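In each group of 5 tumors the highest and the lowest value were compared with the others by Dixon's ratio, in 112 groups (the CPM of the 40 members, Hspa5 and Hsp90b1, the 5 marker sums and the 9 ratios). In 6 of them 1 tumor stood apart, where chance gives about 1 in 20 groups, or 5.6. That number holds for all 112 groups together. Most of the 6 were marker sums, which made up a small part of the groups, so it does not describe the marker sums alone. P4hb was at 1163 CPM in E1 and at 1087 to 1098 CPM in the other E tumors. Hyou1 was at 498 CPM in NE1 and at 430 to 446 CPM in the other NE tumors. The sum of fibroblast markers was 16240 CPM in E5 against 2384 to 5484 CPM in the other E tumors. The sum of skeletal muscle markers was 3865 CPM in E2 against 295 to 1275 CPM in the other E tumors, and 27600 CPM in NE4 against 6.62 to 1608 CPM in the other NE tumors. The sum of carcinoma epithelium markers was 132 CPM in NE5 against 26.3 to 32.6 CPM in the other NE tumors.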

How the results depend on the processing

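Under every fit tried, 0 genes passed both thresholds. Without a fold threshold DESeq2 had 2 genes at an FDR of 0.05, edgeR had 0, and 657 genes were at an unadjusted p of at most 0.05. Members at that p numbered 1 in the design as written, 3 with voom sample weights, 0 without TMM, 0 with the log2 total count and 3 with the skeletal muscle sum as covariate, 0 without E5 and NE4 together (chosen after seeing the data), and 0 to 3 when 1 tumor was left out, with 0 without E4, NE3 or NE5 and 3 without NE1. Genes at that p moved as well, from 657 of 13517 in the design as written to 1800 with voom sample weights. They numbered 632 without TMM, 122 with the log2 total count, 1131 with the skeletal muscle sum and 340 without E5 and NE4. Without E4, NE3 or NE5 they numbered 550, 400 and 579, and without NE1 1350 of 13635. The causes were not tested. Same-numbered tumors deviated together with r of 0.04, -0.16, -0.09, -0.32 and 0.32. Among E tumors only E5 correlated best with the NE tumor of its own number, and NE5 was also the best match of E4. The numbers were therefore not treated as pairs, although the study's text speaks of matched pairs. With the replicate block 2 members (Stt3b and Txndc5) and 714 of 13517 genes were at that p. The relation to Hspa5 then rested on 5 differences between same-numbered tumors, and 0 members were related. So few differences have too few orders for 1 gene alone to pass the adjustment, so this 0 decides nothing. The median log2 fold change of the members moved within the spread between tumors (an SD of 0.06) under all alternatives. Of the named genes, Manf (0.0483) and Sdf2l1 (0.0255) turned with the log2 total count, and Sdf2l1 turned without E5 and NE4, where leaving out tumors gave -0.178 to 0.0435. With Hsp90b1 as the reference 1 member was related in place of 0. For the macrophage or monocyte sum the count was 1, 0 without TMM and 0 to 1 when 1 tumor was left out, and for the skeletal muscle sum 0, and 0 to 1. Leaving out 1 tumor moved the E minus NE difference of Rpn1 to Rpn2 between -0.0497 and 0.0420, above 0 without E3, E4, NE3 or NE4, that of Calr to Canx between 0.0819 and 0.249, with exact p = 0.0476 without E3, and that of Sec61a1 to Sec61b between 0.0581 and 0.135, with exact p = 0.0238 without E3. With 5 tumors a group an exact p cannot go below 0.00794.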
